A study of Mus musculus with 12 samples.

Results

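The genes described here are the cadherins, the protocadherins and a set of neural adhesion molecules. Each was measured in ribosome-bound RNA pulled down from mouse colon through a tag meant for enteric glia. They were chosen by symbol: the numbered Cdh genes other than Cdh1, all Pcdh genes, the neurexins (Nrxn), neuroligins (Nlgn) and contactins (Cntn), and Ncam1, Nrcam, Chl1 and the Cadm genes. Each had to have a locus with an annotated transcript to itself. This gave 65 of the 24394 gene symbols analysed: 4 class I cadherins, 10 class II cadherins, 5 other cadherins, 17 clustered protocadherins (all of the Pcdhb array), 12 non-clustered protocadherins, 3 neurexins, 2 neuroligins, 6 contactins, 3 immunoglobulin-type adhesion molecules and 3 Cadm genes. The rule rests on symbols, not on measured values, though it was chosen with earlier results of these data known.

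The tissue was distal colon myenteric plexus of C57BL/6 mice of the genotype Sox10::CreERT2+/- / Rpl22tm1.1Psam/J. In these mice tamoxifen in chow (400 mg/kg for 2 weeks, then 1 week of plain chow) releases a Cre recombinase in cells that express Sox10, which adds an HA tag to the ribosomal protein Rpl22, and tagged ribosomes are pulled down with their RNA. All mice received tamoxifen, and all were injected daily over 3 days with 0.1% DMSO, alone (Vehicle) or with 0.5 mg/kg of GR159897, which blocks the neurokinin-2 receptor, from 24 hours before an enema of 0.1 ml. Saline_Vehicle and Saline_GR159897 had a saline enema, DNBS_Vehicle and DNBS_GR159897 had 5 mg of DNBS, a hapten that causes colitis, in 50% ethanol, and tissue was taken 48 hours later. Each of the 4 groups held 3 libraries. The saline enema is described without ethanol, so effects of DNBS and of ethanol cannot be told apart. The tag depends on the Sox10 driver, and no label states how pure the pulled-down RNA was. Sex differed in balance: DNBS_GR159897 held 2 females and 1 male, each other group 1 female and 2 males. Nothing in the labels says that libraries of a group came from separate mice, so p-values measure the spread between these samples, which may be technical.

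Classical cadherins are calcium-dependent adhesion proteins that bind the same or a related cadherin on the neighbouring cell and are anchored to actin through catenins. Protocadherins are their larger relatives, and the clustered ones, encoded in a gene array, give neural cells combinations of surface proteins used for self-recognition. Neurexins, neuroligins, contactins and the immunoglobulin-type molecules hold axons, synapses and glial processes in contact, and glia of peripheral nerves use several of them at their contacts with axons.

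Values are FPKM, fragments per kilobase of transcript, scaled to the mapped fragments of each library, so levels can be set side by side between genes, while the depth of each library is unknown. Changes are differences of mean log2(FPKM + 1) with their standard error (SE) from limma, fitted over all 12 libraries and all genes that reached 1 FPKM in at least 3 libraries. A change passed when its Benjamini-Hochberg adjusted p over all those genes was under 0.05. Adding 1 understates the change of low genes. A value of 0 is given as listed at 0 and not read as absence.

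DNBS_GR159897 replicate 1 stood apart, so changes that use it are also given without it. Its summed FPKM over 7 matched glial markers was 9.84, against 212 to 905 in the other 11 libraries, and over 10 epithelial markers 1098, against 0.43 to 38.8. Glial sums of Saline_Vehicle leave out 1 marker that is blank there. S100b, a calcium-binding protein of glia, was at 1.17 FPKM there and at 94.0 to 288 elsewhere. The 8 matched neuronal markers summed to 9.89 FPKM there and to 188 to 307 elsewhere, so neuronal RNA accompanied glial RNA in every other library. Smooth muscle markers summed to 300 FPKM there and to between 1734 and 6729 elsewhere. The smooth muscle sum lay above the glial sum in every library, so levels of the adhesion genes cannot be assigned to glia alone. Among the glial markers Foxd3 was listed at 0 in all 6 saline libraries, and Sox10 itself ran from 1.3 to 248 FPKM. Sox10 was at 1.3, 4.63 and 6.79 FPKM in DNBS_GR159897, against 238.64, 141 and 228.44 in Saline_GR159897. In the vehicle arm it was at 178.71, 15.43 and 247.53 FPKM with saline and at 9.04, 183.96 and 127.1 with DNBS.

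The adhesion genes showed the same library. They summed to 23.3 FPKM in DNBS_GR159897 replicate 1 and to between 173 and 288 FPKM in the other 11. Of the 20 members with a mean of at least 1 FPKM, 16 were lower there than in any other library, and 0 were higher; the exceptions were Cdh24, Pcdhb9, Pcdhb7 and Pcdh17. Cdh17, the cadherin of intestinal epithelium, went the other way: it was at 8.87 FPKM there and at no more than 0.35 FPKM in the other 11 libraries, and did not pass the filter. Cdh26 was the other gene of the 65 that was highest in that library, at 0.14 FPKM while it was listed at 0 in the rest.

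**Figure D1:**
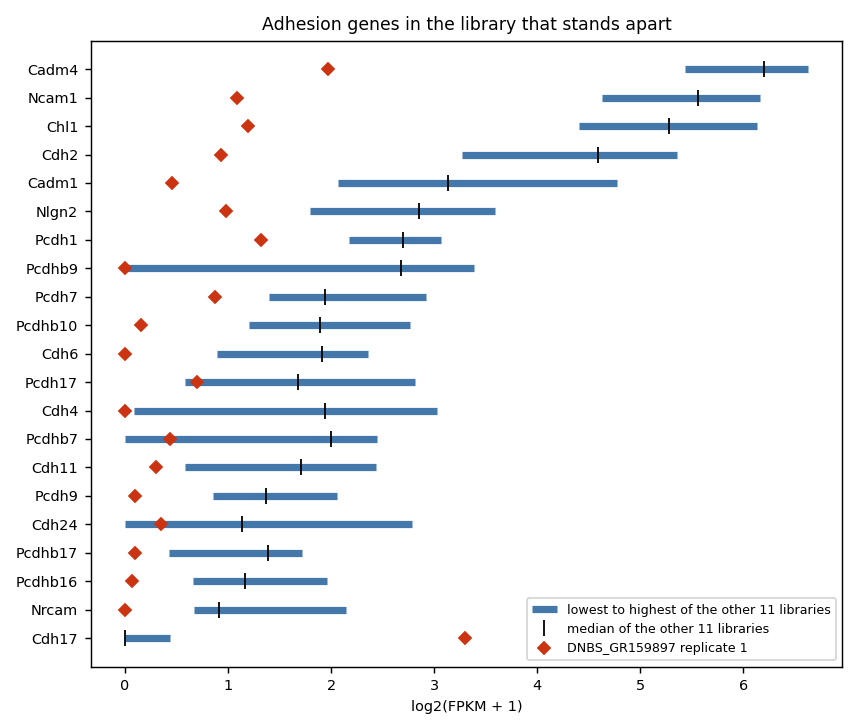
Level of each of the 20 adhesion genes with a mean of at least 1 FPKM, and of Cdh17, as log2(FPKM + 1) on the horizontal axis; blue bars run from the lowest to the highest of the other 11 libraries, black ticks mark their median, and red diamonds mark DNBS_GR159897 replicate 1. The diamonds lie left of the bars for 16 of the 20 genes, and right of the bar for Cdh17.

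Most of the adhesion RNA came from a few genes. Cadm4, Ncam1 and Chl1 together held 53.8% to 70.7% of the summed FPKM of all 65 genes in the 11 libraries, and 22.9% in DNBS_GR159897 replicate 1. Over all 12 libraries the mean levels were 67.6 FPKM for Cadm4, 40.8 for Ncam1, 35.7 for Chl1, 20.8 for Cdh2 and 8.72 for Cadm1. The means of the rest ran from 6.10 FPKM for Nlgn2 down to 0.000833 FPKM for Cdh18. Cadm4 and Cadm1 are immunoglobulin adhesion proteins at contacts between axons and glia, Ncam1 and Chl1 are neural cell adhesion molecules, and Cdh2 is N-cadherin.

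Of the 65 genes, 29 passed the filter and 36 did not, 26 of them under 1 FPKM in all 12 libraries. The filter admits a gene through its highest libraries alone. Cdh4, Pcdhb4, Cdh24, Cdh10 and Cntn1 passed it through saline libraries alone, as no DNBS library reached 1 FPKM for them. Lower values with DNBS are thus partly built in for these genes. Just outside it, with the third highest library as the measure, were Cadm2 at 0.96 FPKM and Pcdhb2 at 0.84, and just inside were Pcdhb15 at 1.02, Cdh10 at 1.04 and Cntn1 at 1.16. By family, the genes tested were 2 class I, 5 class II and 1 other cadherin, 9 clustered and 5 non-clustered protocadherins, 1 neuroligin, 1 contactin, all 3 immunoglobulin-type molecules and 2 Cadm genes, with no neurexin. On GENCODE models 13 of the 65 genes share exon sequence with a gene on the opposite strand, and Cdh12 with Gm49685 on its own strand, and no source says whether strand was used in the counting.

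**Figure D2:**
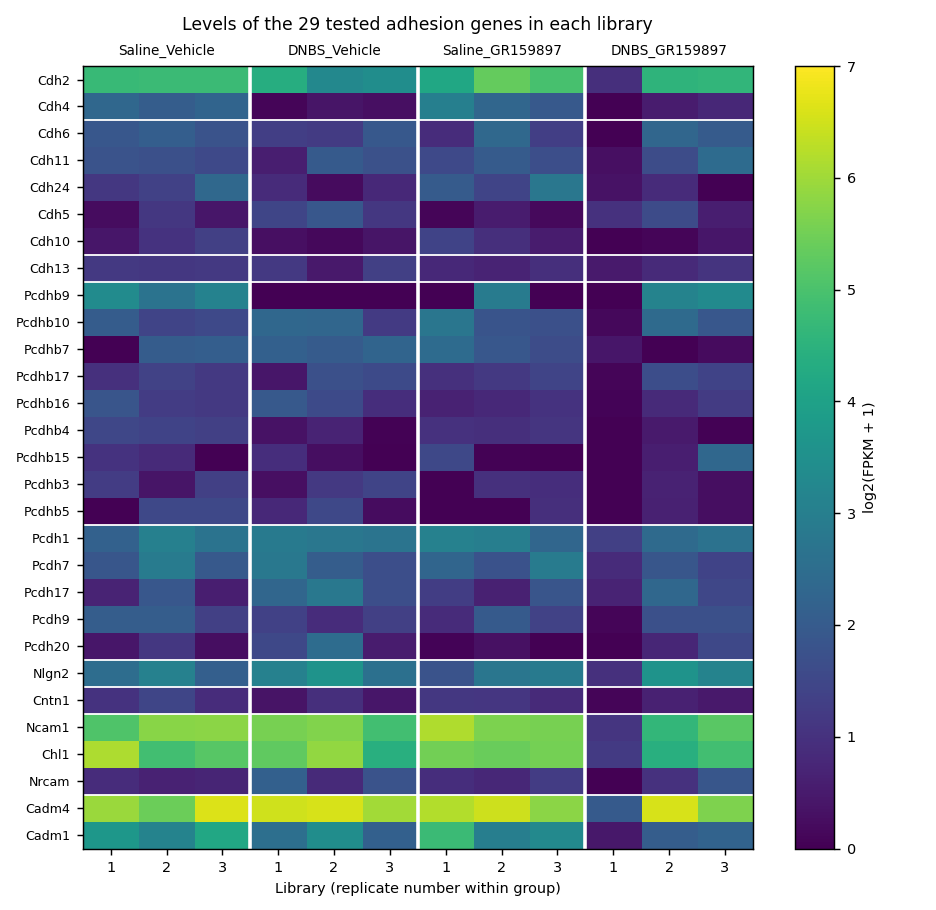
Levels of the 29 tested adhesion genes, ordered by family (rows), in the 12 libraries grouped by treatment (columns); colour gives log2(FPKM + 1). Cadm4, Ncam1 and Chl1 are the brightest rows, the column of DNBS_GR159897 replicate 1 is dark throughout, and Cdh4 is dark in all 6 DNBS libraries.

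DNBS went with less RNA for Cdh4, Pcdhb4, Cdh24 and Cadm1, and with more for no gene of the set. These 4 passed when the DNBS change was averaged over both drug arms (6 libraries against 6), where 0 genes passed upwards. Among all 12777 genes tested, 6.83% passed downwards and 2.76% upwards, 9.6% in all. The adhesion genes' 4 of 29 is thus set against a background in which lower values were also the more frequent. Of the 29, 23 had a lower and 6 a higher value, with a median log2 change of −0.27 against −0.18 over all genes. Ranges of the 6 DNBS and the 6 saline libraries did not overlap for 3 genes, all lower (Cdh4, Pcdhb4 and Cdh24), beside 4.29% of all genes lower and 1.74% higher. These 3 genes passed the filter through saline libraries alone, so their separation is not independent of the filter. In bulk RNA of this kind, fewer cells of a type and less RNA per cell cannot be told apart.

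Without DNBS_GR159897 replicate 1 the balance of the set was closer to even. Then 17 of the 29 were lower and 12 higher, the median log2 change was −0.05 against −0.12 over all genes, and 3 genes passed (Cdh4, Pcdhb4 and Cdh24), all lower, beside 5.67% of all genes lower, 3.83% higher and 9.5% in all. The count of 4 was also 2 without Saline_Vehicle replicate 3, without Saline_GR159897 replicate 1 or without Saline_GR159897 replicate 3. Scaling each library to an equal sum over annotated genes moved the median of all genes by 0.15, left 22 of the 29 lower, and changed the sign of Pcdhb17 alone; the share of higher genes among all genes that passed went from 28.8% to 39.6%.

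Other RNA moved with DNBS as well. The 6 macrophage markers summed to 4.45 to 10.2 FPKM in the saline libraries and to 13.0 to 32.5 FPKM in the DNBS libraries, with no overlap. The 3 neutrophil markers summed to 0.07 to 11.7 FPKM in saline and to 9.02 to 532 FPKM in DNBS libraries. Glial markers summed to 599 to 905 FPKM in Saline_GR159897 and to 9.84, 212 and 429 FPKM in DNBS_GR159897, with no overlap. In the vehicle arm they summed to 279 to 561 FPKM with saline and to 375 to 751 FPKM with DNBS. The vehicle-arm sums are not like for like, since 1 glial marker, Gfap, is blank in Saline_Vehicle. Gfap held 184.35, 288.85 and 236.37 FPKM of the DNBS_Vehicle sums, so these cannot be read as a rise. Annotated genes held 75.4% to 95.1% of summed FPKM in the saline and 22.6% to 84.0% in the DNBS libraries. The part of these shifts in the results on adhesion genes was not tested.

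**Figure D3:**
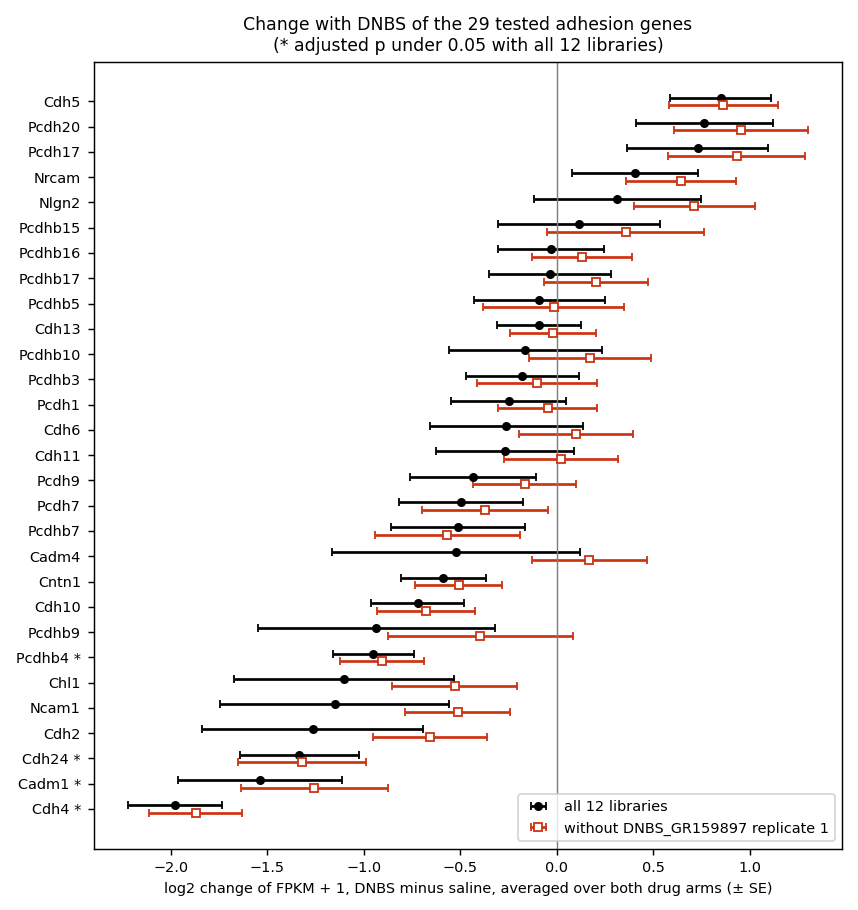
Log2 change of FPKM + 1 with DNBS, averaged over both drug arms, with its SE, for the 29 tested adhesion genes (rows, sorted); black points use all 12 libraries, red squares leave out DNBS_GR159897 replicate 1, and stars mark adjusted p under 0.05. With all libraries Cdh4 is lowest at −1.98 and Cdh5 highest at 0.85, and without the 1 library Cadm4, Chl1, Ncam1 and Cdh2 move towards or past 0.

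Within the vehicle arm alone (DNBS_Vehicle against Saline_Vehicle), which asks what DNBS does without the antagonist, 1 of the 29 genes passed, Cdh4, lower. Background was 0.0861% of 12777 genes lower, 0.235% higher and 0.321% in either direction. Of the set, 18 were lower and 11 higher, with a median of −0.16 against −0.11 over all genes. Ranges did not overlap for 6 of the 29, all lower (Cdh4, Pcdhb4, Pcdhb9, Cdh24, Cdh10 and Cdh2), where 14.9% of all genes were lower and 9.53% higher in that way. Of these, Cdh4, Pcdhb4, Cdh24 and Cdh10 passed the filter through saline libraries alone, so their separation is not independent of the filter. Without DNBS_GR159897 replicate 1, which enters here only through the shared estimate of spread, Cdh4 and Pcdhb9 passed, both lower, beside 0.477% of all genes lower, 0.9% higher and 1.38% in either direction.

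Within the GR159897 arm (DNBS_GR159897 against Saline_GR159897) Cdh4 was again the 1 gene of the 29 that passed, lower, beside 0.994% of all genes lower, 0.383% higher and 1.38% in either direction. Here 23 were lower and 6 higher, with a median of −0.32 against −0.27 over all genes. Ranges did not overlap for 9 lower genes (17.6% of all genes) and for 1 higher gene, Cdh5 (6.67% of all genes). Among the 9 were Cdh4, Pcdhb4, Cdh24, Cdh10 and Cntn1, which passed the filter through saline libraries alone. Their separation is thus not independent of the filter. Without DNBS_GR159897 replicate 1, 14 were lower and 15 higher, the median was 0.06 against −0.12, and 0 passed, with 0.133% of all genes passing downwards, 0.243% upwards and 0.376% in all.

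Cdh4, a class I cadherin known as R-cadherin (ENSMUSG00000000305, chr2:179442431-179899373 on GRCm38, plus strand, up to 16 exons), was at 4.02, 3.18 and 3.82 FPKM in Saline_Vehicle and at 0.06, 0.32 and 0.22 FPKM in DNBS_Vehicle. It was at 7.15, 3.99 and 2.85 FPKM in Saline_GR159897 and at 0 (listed), 0.44 and 0.71 FPKM in DNBS_GR159897. Every saline library lay at least at 2.85 FPKM and no DNBS library above 0.71 FPKM. Saline_Vehicle averaged 3.67 ± 0.44 FPKM (SD, n = 3) and DNBS_Vehicle 0.20 ± 0.13 FPKM (SD, n = 3), a log2 change of −1.96 ± 0.34 (SE, limma adjusted p = 0.0343). In the GR159897 arm the change was −2.00 ± 0.34 (limma adjusted p = 0.0316; −1.78 and 0.0650 without DNBS_GR159897 replicate 1), and averaged over both arms −1.98 ± 0.24 (limma adjusted p = 0.00192), lower in 6 of 6 DNBS libraries.

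The averaged Cdh4 change passed under all 19 alternatives run, leaving out each library included, with adjusted p between 0.00013 and 0.00902. The changes within an arm did not. In the vehicle arm it missed the threshold when any 1 of the 6 libraries compared was left out (adjusted p from 0.0806 without DNBS_Vehicle replicate 3 to 0.160 without Saline_Vehicle replicate 1) and without Saline_GR159897 replicate 2 (0.0536). In the GR159897 arm it missed it without DNBS_GR159897 replicate 1 (0.0650), Saline_GR159897 replicate 1 (0.158) or replicate 3 (0.0647), and Saline_Vehicle replicate 1 (0.0562) or replicate 3 (0.0526). With all 12 libraries the vehicle-arm call was also lost with a pseudocount of 0.1 FPKM (0.0984), no filter (0.0926) or equal annotated sums (0.0535), and the GR159897-arm call with a pseudocount of 0.1 FPKM (0.0585), no filter (0.0759) or a sex term (0.0540). It was lost too when only the 2 groups of the GR159897 arm were fitted (0.159). With a replicate block the calls of both arms were lost. The interaction of DNBS and GR159897 for Cdh4 was −0.03, and 0.18 without DNBS_GR159897 replicate 1.

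Cdh2 (N-cadherin), the most abundant cadherin, was at 25.17, 26.21 and 26.17 FPKM in Saline_Vehicle and at 19.48, 8.63 and 9.81 FPKM in DNBS_Vehicle. It was at 17.02, 39.91 and 30.36 FPKM in Saline_GR159897 and at 0.91, 22.57 and 23.16 FPKM in DNBS_GR159897. The groups separated in the vehicle arm and overlapped in the other. The averaged change of −1.27 ± 0.57 did not pass (limma adjusted p = 0.168), and without DNBS_GR159897 replicate 1 it was −0.66 (0.177). The other class I cadherins, Cdh3 and Cdh15, were under 1 FPKM in all 12 libraries.

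The class II cadherins are expressed in patterns that differ between neural and mesenchymal cell groups. Of the 5 tested, 4 had a lower and 1 a higher averaged value, with 1 passing (Cdh24), and without DNBS_GR159897 replicate 1 the split was 2 lower and 3 higher. Cdh24 (ENSMUSG00000059674, chr14:54631231-54641364, minus strand, up to 12 exons) was at 1.20, 1.56 and 4.14 FPKM in Saline_Vehicle and at 0.82, 0.15 and 0.74 FPKM in DNBS_Vehicle. It was at 3.00, 1.68 and 5.88 FPKM in Saline_GR159897 and at 0.27, 0.80 and 0 (listed) FPKM in DNBS_GR159897. All 6 DNBS libraries lay below all 6 saline libraries, with a gap from 0.82 to 1.20 FPKM.

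Saline_Vehicle averaged 2.30 ± 1.60 FPKM (SD, n = 3) and DNBS_Vehicle 0.57 ± 0.37 FPKM (SD, n = 3) for Cdh24. The averaged log2 change was −1.33 ± 0.31 (limma adjusted p = 0.0236), and −1.32 (0.0318) without DNBS_GR159897 replicate 1. It missed the threshold without Saline_Vehicle replicate 3 (0.0634), Saline_GR159897 replicate 1 (0.0550) or Saline_GR159897 replicate 3 (0.0531), and with all libraries when no filter was applied (0.0564). Within an arm it did not pass: −1.0 (0.366) with vehicle and −1.67 (0.0677; −1.64 and 0.136 without DNBS_GR159897 replicate 1) with GR159897.

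Cdh10 (ENSMUSG00000022321), a cadherin of brain circuits singled out after its values were seen, was at 0.34, 1.04 and 1.52 FPKM in Saline_Vehicle and at 0.23, 0.11 and 0.31 FPKM in DNBS_Vehicle. It was at 1.64, 0.92 and 0.46 FPKM in Saline_GR159897 and at 0 (listed), 0.06 and 0.34 FPKM in DNBS_GR159897. The DNBS libraries lay below the saline ones within each arm, at levels near the filter, and the averaged change of −0.72 ± 0.24 did not pass (limma adjusted p = 0.0746; −0.68 and 0.111 without DNBS_GR159897 replicate 1).

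Sequence 5′ of these 2 class II cadherins and of Cadm4, the most abundant member, is shown because Cdh24 and Cdh10 lay lower with DNBS in both arms while Cadm4 did not. Each run is the 250 bases before the RefSeq start on GRCm38.p6, read 5′ to 3′ on the gene's strand, at chr14:54641365-54641614 (minus strand) for Cdh24, chr15:18820079-18820328 (plus strand) for Cdh10 and chr7:24481773-24482022 (plus strand) for Cadm4. Capitals mark the GC box GGGCGG or its reverse complement. Sequences are from RefSeq, which had an entry for 33 of the 65 genes.
Cdh24: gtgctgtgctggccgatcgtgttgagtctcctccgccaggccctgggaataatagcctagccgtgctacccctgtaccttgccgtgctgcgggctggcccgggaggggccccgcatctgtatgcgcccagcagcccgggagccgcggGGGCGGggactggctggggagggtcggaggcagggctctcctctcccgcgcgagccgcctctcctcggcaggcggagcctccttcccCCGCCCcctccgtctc
Cdh10: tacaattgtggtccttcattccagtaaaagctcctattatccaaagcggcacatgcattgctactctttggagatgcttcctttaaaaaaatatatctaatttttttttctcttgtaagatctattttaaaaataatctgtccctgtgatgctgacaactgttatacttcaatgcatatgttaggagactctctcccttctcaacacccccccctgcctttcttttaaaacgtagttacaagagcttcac
Cadm4: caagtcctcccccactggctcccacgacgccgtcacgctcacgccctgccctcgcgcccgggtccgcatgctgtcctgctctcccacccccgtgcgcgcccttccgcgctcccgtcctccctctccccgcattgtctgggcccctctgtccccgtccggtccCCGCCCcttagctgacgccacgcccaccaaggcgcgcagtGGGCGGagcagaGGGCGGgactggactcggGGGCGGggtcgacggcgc

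The Cdh24 stretch had 72.8% G and C, 22 CpG dinucleotides and 2 GC boxes, and the Cadm4 stretch 75.2%, 30 and 4. The Cdh10 stretch had 36.8% G and C and 2 CpG dinucleotides, and no GC box. The median over 32851 RefSeq promoters of the same length was 52.4% G and C and 6 CpG dinucleotides. The Cdh24 and Cadm4 stretches were thus close in base composition, and the Cdh10 stretch was not. These 3 genes were chosen after their values were seen, and the DNBS change of Cdh10 did not pass. A link between sequence and DNBS values was not tested. GGGCGG was found on either strand in 32.7% of those promoters. Also searched on both strands were TATAAA (12.4% of promoters), CAGCTG (13%), ACAAAG (16.5%) and TGANTCA (6.75%), none of which was found in the 3 stretches. The RefSeq start of Cdh10 lies 1382 bases inside the first GENCODE start, while for Cdh24 and Cadm4 the starts are the same.

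Cdh6 and Cdh11, cadherins of neural crest and mesenchymal cells, showed no change that passed. Cdh6 was at 2.76, 3.28 and 2.46 FPKM in Saline_Vehicle, 1.44, 1.32 and 2.83 in DNBS_Vehicle, 0.86, 4.12 and 1.45 in Saline_GR159897 and 0 (listed), 3.96 and 3.04 in DNBS_GR159897. Cdh11 was at 2.43, 2.26 and 1.94 FPKM in Saline_Vehicle, 0.50, 2.95 and 2.31 in DNBS_Vehicle, 1.92, 3.02 and 2.20 in Saline_GR159897 and 0.23, 2.11 and 4.41 in DNBS_GR159897. For both, the groups overlapped in every comparison.

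Cdh5 (VE-cadherin), the cadherin of endothelial junctions, had the highest averaged change of the set with all 12 libraries, while without DNBS_GR159897 replicate 1 Pcdh20 (0.95) and Pcdh17 (0.93) lay above it (0.86). It was at 0.18, 1.20 and 0.33 FPKM in Saline_Vehicle and at 1.76, 2.73 and 1.20 FPKM in DNBS_Vehicle. It was at 0.07, 0.45 and 0.14 FPKM in Saline_GR159897 and at 1.01, 2.02 and 0.51 FPKM in DNBS_GR159897. DNBS libraries were higher with no overlap in the GR159897 arm, and touched at 1.20 FPKM in the vehicle arm. The averaged change of 0.85 ± 0.26 did not pass (limma adjusted p = 0.0588; 0.0730 without DNBS_GR159897 replicate 1; 0.0368 without DNBS_GR159897 replicate 3). The 6 matched endothelial markers summed to 1.88 to 11.6 FPKM in saline and to 2.07 to 18.7 FPKM in DNBS libraries. Cldn5 weighed most in these sums, at 1.23 to 8.63 FPKM in saline and 0 to 14.59 FPKM in DNBS libraries. No other marker of the 6 exceeded 0.86 FPKM in saline or 1.65 FPKM in DNBS libraries. The part of endothelial RNA in the Cdh5 values was not tested.

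**Figure D4:**
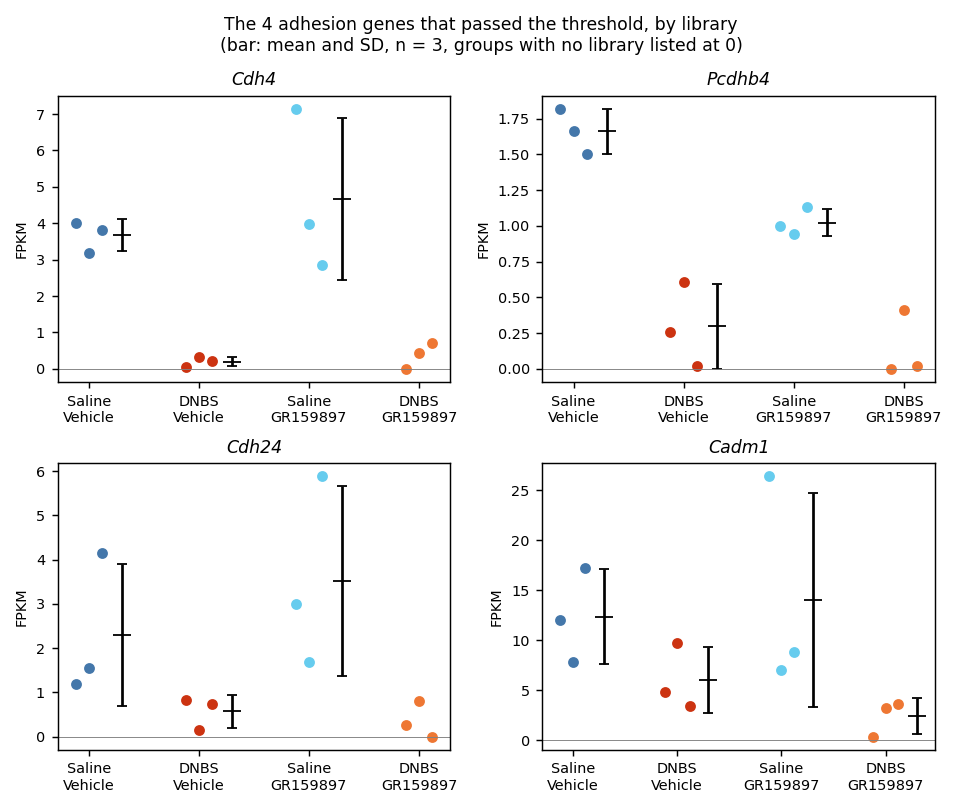
FPKM (vertical axes, linear) of the 4 adhesion genes that passed with DNBS averaged over both arms, by group; points are libraries, and bars give the mean and SD (n = 3) where no library was listed at 0. For Cdh4, Pcdhb4 and Cdh24 all 6 DNBS points lie below all 6 saline points, and for Cadm1 the DNBS_Vehicle range reaches into the saline range.

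Of the cadherins outside both classes, Cdh13 (T-cadherin, which is tethered to the membrane by a lipid anchor) was tested and did not pass in any comparison. Its levels were 1.24, 1.19 and 1.24 FPKM in Saline_Vehicle, 1.23, 0.40 and 1.52 in DNBS_Vehicle, 0.76, 0.63 and 0.91 in Saline_GR159897 and 0.41, 0.78 and 1.07 in DNBS_GR159897. Cdh16, a cadherin of kidney tubules, was at no more than 0.02 FPKM in any library.

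The clustered protocadherins tested were all Pcdhb genes. The 17 of the set lie within chr18:37294812-37494505 on GRCm38, and 16 of the 17 consist of a single exon. These genes are near-identical over long stretches, so reads may be split between them and each value is uncertain. Of the 9 tested, 8 had a lower and 1 a higher averaged DNBS value, 7 and 2 with equal annotated sums and 5 and 4 without DNBS_GR159897 replicate 1. The median was −0.16 with all 12 libraries. One passed, Pcdhb4.

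Pcdhb4 (ENSMUSG00000045689, chr18:37307455-37311172, plus strand, 1 exon) was at 1.82, 1.66 and 1.5 FPKM in Saline_Vehicle and at 0.26, 0.61 and 0.02 FPKM in DNBS_Vehicle. It was at 1.00, 0.94 and 1.13 FPKM in Saline_GR159897 and at 0 (listed), 0.41 and 0.02 FPKM in DNBS_GR159897. The DNBS libraries all lay below the saline libraries. Saline_Vehicle averaged 1.66 ± 0.16 FPKM (SD, n = 3) and DNBS_Vehicle 0.30 ± 0.30 FPKM (SD, n = 3). The averaged change was −0.95 ± 0.21 (limma adjusted p = 0.0189), and −0.91 (0.0255) without DNBS_GR159897 replicate 1. It passed under all 18 alternatives that tested it, with adjusted p up to 0.0486. Within an arm it did not pass: −1.06 (0.172) with vehicle and −0.84 (0.129; −0.75 and 0.264 without DNBS_GR159897 replicate 1) with GR159897.

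Pcdhb9 went from present to listed at 0 between the vehicle groups, and between libraries within each GR159897 group. It was at 9.48, 5.39 and 7.56 FPKM in Saline_Vehicle and listed at 0 in all 3 DNBS_Vehicle libraries. It was at 0, 6.53 and 0 FPKM in Saline_GR159897 and at 0, 7.68 and 9.18 FPKM in DNBS_GR159897. Levels were thus either 0 or at least 5.39 FPKM, and both kinds occurred within each GR159897 group. The fitted DNBS change in the vehicle arm was −3.05 ± 0.87 (limma adjusted p = 0.184; 0.0442, past the threshold, without DNBS_GR159897 replicate 1), and the fitted value depends on the added 1.

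Pcdhb7 was at 0 (listed), 3.12 and 3.23 FPKM in Saline_Vehicle and at 3.40, 2.99 and 3.80 FPKM in DNBS_Vehicle. It was at 4.46, 2.73 and 2.10 FPKM in Saline_GR159897 and at 0.35, 0 (listed) and 0.15 FPKM in DNBS_GR159897. DNBS_GR159897 lay below DNBS_Vehicle and Saline_GR159897 with no overlap, and its replicate 1 was the highest of its group. The change against Saline_GR159897 was −1.78 ± 0.49 (limma adjusted p = 0.0768; −1.89 and 0.127 without DNBS_GR159897 replicate 1) and did not pass.

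Pcdhb10, Pcdhb16 and Pcdhb17 were measured in all 12 libraries. Their levels over the 12 libraries ran from 0.11 to 5.78 FPKM for Pcdhb10, 0.05 to 2.89 FPKM for Pcdhb16 and 0.07 to 2.28 FPKM for Pcdhb17, each lowest in DNBS_GR159897 replicate 1. The 17 Pcdhb genes of the set summed to 21.5 to 24.2 FPKM in Saline_Vehicle, 13.7 to 17.8 in DNBS_Vehicle, 11.9 to 20.5 in Saline_GR159897, and 0.58, 19.4 and 22.5 in DNBS_GR159897. Between 1 and 5 of the 17 genes were listed at 0 in 11 libraries, and 13 in DNBS_GR159897 replicate 1.

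**Figure D5:**
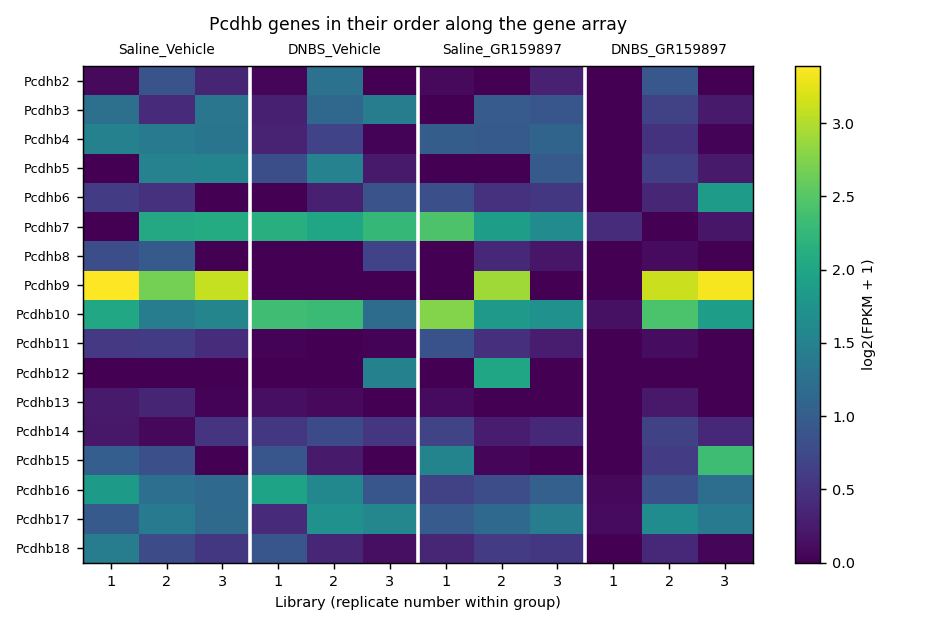
Levels of the 17 Pcdhb genes in their order along the array (rows) in the 12 libraries (columns); colour gives log2(FPKM + 1). Pcdhb9 is bright in Saline_Vehicle, at 0 in DNBS_Vehicle and mixed within both GR159897 groups. Pcdhb4 is dark in the DNBS libraries, and the column of DNBS_GR159897 replicate 1 is close to 0 throughout.

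The non-clustered protocadherins are single genes with neural and vascular roles, and none of the 5 tested passed. Pcdh1 was the most abundant, at 3.51, 7.24 and 5.40 FPKM in Saline_Vehicle, 6.35, 5.88 and 5.5 in DNBS_Vehicle, 7.39, 6.92 and 3.95 in Saline_GR159897 and 1.5, 4.35 and 5.27 in DNBS_GR159897. Pcdh7 ranged from 0.83 to 6.57 FPKM and Pcdh9 from 0.07 to 3.16 FPKM. Averaged DNBS values were −0.25 for Pcdh1, −0.50 for Pcdh7 and −0.43 for Pcdh9, and without DNBS_GR159897 replicate 1 they were nearer to 0, at −0.0488, −0.37 and −0.17.

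Pcdh17 and Pcdh20 had higher values with DNBS. Pcdh17 was at 0.62, 2.73 and 0.50 FPKM in Saline_Vehicle, 3.92, 6.01 and 2.21 in DNBS_Vehicle, 1.43, 0.56 and 2.57 in Saline_GR159897 and 0.62, 4.01 and 1.82 in DNBS_GR159897. Pcdh20 was at 0.35, 1.20 and 0.20 FPKM in Saline_Vehicle, 1.86, 4.53 and 0.44 in DNBS_Vehicle, 0.05, 0.24 and 0 (listed) in Saline_GR159897 and 0 (listed), 0.69 and 1.89 in DNBS_GR159897. For both, the groups overlapped in each arm. The averaged changes of 0.73 ± 0.36 for Pcdh17 (limma adjusted p = 0.210) and 0.76 ± 0.35 for Pcdh20 (limma adjusted p = 0.178) did not pass, nor did those without DNBS_GR159897 replicate 1 (adjusted p = 0.115 and 0.102).

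Neurexins are presynaptic receptors, and Nrxn2 and Nrxn3 stayed under 1 FPKM in all 12 libraries. Of the neurexin partners, Nlgn2, the neuroligin of inhibitory synapses, was measured at 4.66, 7.49 and 3.33 FPKM in Saline_Vehicle, 7.46, 11.08 and 5.01 in DNBS_Vehicle, 2.48, 5.70 and 6.21 in Saline_GR159897 and 0.97, 11.01 and 7.83 in DNBS_GR159897. The groups overlapped, and the averaged change of 0.31 ± 0.43 did not pass. It was 0.71 ± 0.31 without DNBS_GR159897 replicate 1 and did not pass either (limma adjusted p = 0.170). Nlgn1 stayed at or under 0.86 FPKM. Contactins are lipid-anchored partners of axonal and glial receptors, and Cntn1 was the 1 of 6 tested. It was at 1.05, 1.76 and 0.86 FPKM in Saline_Vehicle, 0.30, 0.94 and 0.33 in DNBS_Vehicle, 1.21, 1.16 and 0.77 in Saline_GR159897 and 0.06, 0.55 and 0.40 in DNBS_GR159897. It was named after its values were seen. Its averaged change of −0.59 ± 0.22 did not pass (limma adjusted p = 0.107; −0.51 and 0.169 without DNBS_GR159897 replicate 1).

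Ncam1 was at 32.56, 53.31 and 53.83 FPKM in Saline_Vehicle, 46.00, 49.78 and 28.47 in DNBS_Vehicle, 70.64, 47.90 and 46.07 in Saline_GR159897 and 1.13, 23.83 and 35.79 in DNBS_GR159897. Chl1, the close homologue of L1, was at 69.33, 28.28 and 35.42 FPKM in Saline_Vehicle, 37.81, 56.94 and 20.28 in DNBS_Vehicle, 44.61, 41.05 and 45.45 in Saline_GR159897 and 1.29, 20.18 and 28.30 in DNBS_GR159897. For both, DNBS_GR159897 lay below Saline_GR159897 with no overlap, also in its replicates 2 and 3, while the vehicle groups overlapped. The change in the GR159897 arm was −2.13 ± 0.84 for Ncam1 (limma adjusted p = 0.160) and −1.99 ± 0.81 for Chl1 (limma adjusted p = 0.171). Without replicate 1 it was −0.86 for Ncam1 and −0.84 for Chl1 (limma, neither passing).

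Nrcam, a molecule of axonal nodes, was at 0.86, 0.59 and 0.65 FPKM in Saline_Vehicle, 3.41, 0.79 and 2.49 in DNBS_Vehicle, 0.88, 0.72 and 1.37 in Saline_GR159897 and 0 (listed), 0.98 and 2.69 in DNBS_GR159897. Values were higher in some DNBS libraries and the groups overlapped. Its averaged change of 0.40 ± 0.33 did not pass, nor did the 0.64 ± 0.28 without DNBS_GR159897 replicate 1 (limma adjusted p = 0.170).

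Cadm4 was at 60.55, 42.34 and 98.17 FPKM in Saline_Vehicle, 89.73, 95.26 and 64.34 in DNBS_Vehicle, 72.69, 87.14 and 54.17 in Saline_GR159897 and 2.92, 94.74 and 49.22 in DNBS_GR159897. Apart from the 1 library its groups overlapped fully. The averaged change was −0.52 with all 12 libraries and 0.17 without DNBS_GR159897 replicate 1, and neither passed.

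Cadm1 (ENSMUSG00000032076, chr9:47530173-47857637, plus strand, up to 12 exons), known as SynCAM1, was at 12.00, 7.79 and 17.28 FPKM in Saline_Vehicle and at 4.86, 9.74 and 3.44 FPKM in DNBS_Vehicle. It was at 26.41, 7.01 and 8.82 FPKM in Saline_GR159897 and at 0.37, 3.20 and 3.66 FPKM in DNBS_GR159897. DNBS libraries were lower with no overlap in the GR159897 arm, and DNBS_Vehicle replicate 2 lay above Saline_Vehicle replicate 2. DNBS_Vehicle averaged 6.01 ± 3.30 FPKM (SD, n = 3) and DNBS_GR159897 2.41 ± 1.78 FPKM (SD, n = 3), against 12.4 ± 4.76 and 14.1 ± 10.7 FPKM in their saline groups.

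Averaged over both arms Cadm1 fell by 1.54 ± 0.42 on the log2 scale (limma adjusted p = 0.0409). Without DNBS_GR159897 replicate 1 the change was −1.26 (0.0597) and did not pass. It also missed the threshold without Saline_Vehicle replicate 1 (0.0836), 2 (0.0546) or 3 (0.0997), DNBS_Vehicle replicate 1 (0.0810) or 3 (0.0791), and Saline_GR159897 replicate 1 (0.0978) or 3 (0.0634). With all libraries it was lost with a pseudocount of 0.1 FPKM (0.0625), no filter (0.0939) or a sex term (0.0641), and also with a replicate block. Cadm2, the third Cadm gene, did not pass the filter, with a highest value of 3.58 FPKM in DNBS_Vehicle replicate 2.

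The antagonist was compared within each enema. Without DNBS (Saline_GR159897 against Saline_Vehicle) 0 of the 29 genes passed in limma, beside 0% of 12777 genes, and 1 had an unadjusted p under 0.05 (217 of all genes). The set split into 16 higher and 13 lower, with a median of 0.02 against −0.03. Ranges did not overlap for 3 lower genes, Pcdhb16, Pcdhb4 and Cdh13, with 4.18% of all genes lower and 3.04% higher in that way. With DNBS_GR159897 replicate 1 out of the shared estimate of spread, 0.00783% of all genes passed, lower. Pcdhb16 was at 2.60, 1.35 and 1.24 FPKM in Saline_Vehicle and at 0.58, 0.75 and 1.05 FPKM in Saline_GR159897, a change of −0.58 ± 0.39.

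With DNBS (DNBS_GR159897 against DNBS_Vehicle) 0 of the 29 passed in limma, beside 0% of 12778 genes, and 2 had an unadjusted p under 0.05 (1039 of all genes). Of the 29, 25 were lower and 4 higher, with a median of −0.46 against −0.21. Without DNBS_GR159897 replicate 1, 19 were lower and 10 higher, with a median of −0.16 against −0.06, and 0.00783% of all genes passed, higher. Scaling to equal annotated sums moved the median of all genes by 0.32 and left 21 lower. Ranges did not overlap for 2 lower genes, Pcdhb7 and Pcdh1 (6.89% of all genes). The smallest adjusted p was that of Pcdhb7, with a change of −1.92 ± 0.49 (limma adjusted p = 0.534), lower in 3 of 3 libraries. It was −2.03 (0.720) without DNBS_GR159897 replicate 1, and then the smallest adjusted p was that of Pcdhb9, at 3.23 (0.510).

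The interaction asks whether the DNBS change differed between vehicle and GR159897. In limma 0 of the 29 genes passed, beside 0% of 12777 genes, and 2 had an unadjusted p under 0.05 (458 of all genes). These were Pcdhb7 at −2.54 ± 0.69 and Pcdhb9 at 4.24 ± 1.23, both with a limma adjusted p of 0.957. Pcdhb9 was at 5.32 (0.307) and Pcdhb7 at −2.65 without DNBS_GR159897 replicate 1, and neither passed. The interaction, the averaged DNBS change and both group comparisons with DNBS_GR159897 use the same 3 libraries of that group, replicate 1 included. Without replicate 1, 0.00783% of all genes passed in the interaction, all higher.

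A list of 61 cytoplasmic and membrane partners and relatives of these genes (catenins, scaffolds, nectins, ankyrins, Fat and Celsr cadherins, Clstn, proteases) was examined in the same fit, and 34 of them passed the filter. Averaged over both arms 3 passed, all lower: Fat4, an atypical cadherin, at −2.25 ± 0.25 (limma adjusted p = 0.00158), Apba2, a scaffold that binds neurexin complexes, at −1.12 ± 0.24 (limma adjusted p = 0.0181), and Ank3, ankyrin-G, at −1.05 ± 0.28 (limma adjusted p = 0.0367). Among all genes 6.83% passed downwards and 9.6% in all. Of the 34, 26 were lower and 8 higher, with a median of −0.50 against −0.18 over all genes. Ctnna1 (alpha-catenin), which ran from 8.98 to 95.1 FPKM, and Jup (plakoglobin) did not pass.

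Without DNBS_GR159897 replicate 1, Fat4 (−2.12) and Apba2 (−1.03) passed, Ank3 did not, and 3 others did: Nxph3, a neurexin ligand, lower at −1.04, Cntnap1, the contactin partner of paranodes, higher at 0.80, and Mmp9, a protease that cleaves adhesion proteins, higher at 1.61. These 5 stand beside 9.5% of all genes, and the median of the 34 was then −0.29 against −0.12. Cntnap1 and Mmp9 passed the filter through DNBS libraries alone, as no saline library exceeded 0.31 FPKM for Cntnap1 or 0.41 FPKM for Mmp9. Higher values with DNBS are thus partly built in for Cntnap1 and Mmp9. In the vehicle arm Fat4 alone passed, lower, beside 0.0861% of all genes lower. In the GR159897 arm Fat4 and Apba2 passed, both lower, beside 0.994% of all genes lower, and neither passed without DNBS_GR159897 replicate 1.

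Several genes of these families share a locus with other genes in the deposited table and were not counted. The merged locus of Med12, Gm21986 and Nlgn3 was at 3.19, 2.47 and 4.98 FPKM in Saline_Vehicle, 1.98, 0.35 and 1.43 in DNBS_Vehicle, 5.98, 2.38 and 4.03 in Saline_GR159897 and 1.1, 0.91 and 1.23 in DNBS_GR159897. It fell by 1.15 ± 0.28 on the log2 scale averaged over both arms (limma adjusted p = 0.0269; −1.15 and 0.0341 without DNBS_GR159897 replicate 1), with no overlap, and the values cannot be assigned to Nlgn3. The merged locus of Cdh19, a cadherin of the neural crest lineage, and Gm38255 was at 10.35, 6.04 and 4.70 FPKM in Saline_Vehicle, 9.45, 18.67 and 4.0 in DNBS_Vehicle, 14.40, 6.47 and 6.17 in Saline_GR159897 and 0.17, 5.99 and 3.28 in DNBS_GR159897. Its averaged change of −0.56 did not pass, nor did the −0.19 without DNBS_GR159897 replicate 1. The locus with L1cam, Arhgap4 and Naa10 ran from 1.64 to 9.97 FPKM and did not pass. The Pcdha and Pcdhg arrays formed 1 merged locus at 0.13 to 3.82 FPKM. A merged locus of Pcdhb19, Pcdhb20, Pcdhb21 and Pcdhb22 was at 0.07 to 1.28 FPKM.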

How the data were processed

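Ribosome-bound RNA of 12 libraries, 4 groups of 3, was analysed. Complementary DNA from 1 ng of RNA was made into paired-end Illumina libraries, per the labels' protocols. The deposited values are FPKM per assembled locus, given by the authors with 2 decimals. Tools listed in the submitters' processing notes, without their roles, are StringTie 1.3, HISAT2 2.0, cutadapt 1.10 and FastQC 0.10.1. The genome build, the use of strand and the depth per library are not given in the sources used here, so no counting interval is printed. A listed 0 can be a failed estimate.

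Of 99547 loci, 24432 held an annotated Ensembl transcript; with 1 locus per symbol these gave 24394 symbols. All value columns were mapped to a sample, and 0 pairs of libraries were identical. Values were analysed as log2(FPKM + 1) and a gene was tested if 3 or more libraries reached 1 FPKM (12778; 12777 where Saline_Vehicle is used, since 1 gene is blank there). A single model over all libraries, with 1 mean per group and neither sex nor block, was fitted with limma 3.58.1 in R 4.3.3 (trended, robust prior), two-sided, with Benjamini-Hochberg adjustment over all genes and a threshold of 0.05. The procedure was run on simulated data with independent normal noise and no outlying library. That run does not cover a library such as DNBS_GR159897 replicate 1. The 6 comparisons were the 4 between groups, DNBS averaged over both drug arms, and the interaction. Named genes were all that passed, the 3 with the smallest p in each direction per comparison, the 3 most abundant per family with a mean of at least 1 FPKM, and Cdh5, Cdh11, Cdh13, Cdh16, Cdh17 and Cdh19; this gave 27. The values of 1 gene of the set are not reported here. The members, lists and rules were chosen with earlier results of these data known. Summed FPKM of marker lists for fibroblasts, interstitial cells of Cajal, mesothelium and lymphocytes were computed beside those named in the report: over all 12 libraries they ran from 21.9 to 82.4, 0.55 to 5.53, 0.31 to 9.57 and 0 to 1.78 FPKM.

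Positions are from GENCODE M21 (GRCm38) through transcript identifiers, with all 65 genes matched to a single gene, and promoter sequences from RefSeq (GRCm38.p6). Alternatives were a pseudocount of 0.1 FPKM, no filter, at least 1 FPKM in at least 6 libraries, a sex term, a replicate block, libraries scaled to equal annotated sums, limma library weights, only the groups compared, and leaving out each library in turn. Software was Python 3.11.15, numpy 2.4.6, pandas 2.3.3 and matplotlib 3.10.9.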

Additional observations from a re-analysis of the deposited data

Results flagged for a closer look

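Signal was found in loci that carry the name of an adhesion gene of the set but hold no annotated transcript, which no comparison of the report uses. There were 920 such loci. Their summed FPKM was 132, 279 and 77.1 in Saline_Vehicle, 325, 240 and 202 in DNBS_Vehicle, 18.6, 469 and 265 in Saline_GR159897 and 354, 819 and 383 in DNBS_GR159897. The lowest DNBS_GR159897 library, at 354 FPKM, lay above the highest Saline_Vehicle library, while Saline_GR159897 replicate 2 lay within the DNBS_GR159897 range. Over all 75115 loci without an annotated transcript the share of signal was also larger in DNBS_GR159897. Annotated genes held 83.5% to 92.6% of summed FPKM in Saline_Vehicle and 22.6% to 64.5% in DNBS_GR159897. The higher sum is thus not particular to loci named after adhesion genes, and the difference was not tested.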

How the results depend on the processing

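In limma 0 of the 29 genes passed for Saline_GR159897 against Saline_Vehicle, DNBS_GR159897 against DNBS_Vehicle and the interaction under every alternative run. For DNBS_Vehicle against Saline_Vehicle the count of 1 was 0 with a pseudocount of 0.1, no filter, a replicate block or equal annotated sums, 3 with library weights, 2 with only the groups compared, and 0 to 2 with 1 library left out. For DNBS_GR159897 against Saline_GR159897 the count of 1 was 0 with a pseudocount of 0.1, no filter, a sex term, a replicate block or only the groups compared, 6 with library weights, and 0 to 1 with 1 library left out. For DNBS averaged over both arms the count of 4 was 2 without a filter, 7 with library weights, 4 with a replicate block, and 2 to 5 with 1 library left out.

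Over all genes, the 41 of the vehicle arm became 21 with a pseudocount of 0.1, 13 with no filter, 24 with a sex term, 18 with a replicate block, 514 with library weights, 109 with only the groups compared, and 0 to 176 with 1 library left out. The 176 of the GR159897 arm became 42, 18, 25, 31, 2154, 10 and 4 to 604 in that order, and 91 with equal annotated sums (54.9% of them higher, against 27.8%). The 1226 of the average became 442 with no filter, 800 with a sex term, 3009 with library weights, and 397 to 1655 with 1 library left out.

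Of 991 alternative values for 51 named gene and comparison pairs, 924 kept direction and side of the threshold, 37 no longer passed, 14 passed in addition and 16 reversed, all 16 of changes that had not passed. For Saline_GR159897 against Saline_Vehicle, Cadm1 was −0.21 with library weights, −0.25 without Saline_Vehicle replicate 2 and −0.53 without Saline_GR159897 replicate 1 (−0.53 to 0.36 with 1 library left out). Cdh4 was −0.0881 without Saline_GR159897 replicate 1 (−0.0881 to 0.45), and Pcdhb7 −0.0682 without Saline_Vehicle replicate 1 (−0.0682 to 0.97). For DNBS_GR159897 against DNBS_Vehicle, Cdh24 was 0.0031 and Pcdhb4 0.14 with library weights, and Pcdhb15 −0.0900 without DNBS_GR159897 replicate 3 (−0.0900 to 1.08). The Cdh4 interaction was 0.10 with a pseudocount of 0.1, 0.0848 with a sex term, 0.33 with library weights, 0.0443 without Saline_Vehicle replicate 2, 0.0377 without DNBS_Vehicle replicate 2, 0.26 without Saline_GR159897 replicate 1 and 0.18 without DNBS_GR159897 replicate 1 (−0.28 to 0.26 with 1 library left out). That of Pcdhb4 was −0.13 with a pseudocount of 0.1. The cause was not tested, beyond the fewer genes or samples of some fits.

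Replicate numbers are shared between groups, and the labels do not say what a number marks. Same-numbered libraries deviated together by −0.0883 to 0.202 (correlation, 18 pairs, median 0.0161), against −0.265 to 0.223 for 36 pairs of other numbers. Of 12 libraries, 5 correlated best with their own number. With so few libraries per group, these values cannot decide whether a number marks a shared animal, litter or day. With the replicate block the averaged Cdh5 change passed (adjusted p = 0.0380) and that of Cadm1 did not (0.0655). Low levels limit what could be seen: 36 of the 65 genes were not tested, and FPKM carry no depth.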
